A study of Bos taurus with 3 samples.

Results

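Genes that move, store and sense zinc, copper and iron were examined in BFF116 cells. These are cultured fibroblasts of a bovine fetus whose nuclei serve as donors for cloning. The genes were picked by a rule on gene symbols, with earlier results of these data known. The rule covered the zinc exporters (SLC30A), the zinc importers (SLC39A), and the metallothioneins with their regulator MTF1. It also covered the copper carriers and chaperones, and the genes of iron uptake, storage, release and sensing. The rule found 43 genes among the 31903 of the deposited table, namely 8 zinc exporters, 13 zinc importers, 4 metallothioneins, MTF1, 5 copper genes and 12 iron genes. SLC30A8, SLC30A10, SLC39A4, ATP7A, HEPH and CP, which the rule also covers, were not analysed here.

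The study sequenced RNA from 3 replicates of 70000 cells, all in 1 group. Every replicate was deprived of serum for 48 h, the step that synchronizes donor cells before nuclear transfer, then harvested and frozen. No unstarved, metal-treated or other control cells are part of the series, so levels and their spread are described and no change with a treatment can be given. The labels do not say whether replicates were separate cultures of these cells, so part of their spread may be technical.

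Cells keep zinc, copper and iron scarce in free form, because each metal is both a cofactor and a hazard. SLC39A (ZIP) proteins carry zinc into the cytosol and SLC30A (ZnT) proteins carry it out of the cytosol or into organelles, while metallothioneins bind zinc and copper and are switched on by the zinc-sensing factor MTF1. Copper enters through SLC31A1 and is handed by chaperones to its users, which in fibroblasts include the lysyl oxidases that crosslink collagen. Iron bound to transferrin enters through TFRC, is stored in ferritin and leaves through ferroportin (SLC40A1), and the iron regulatory proteins ACO1 and IREB2 bind ferritin and TFRC messages when iron is low.

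Gene counts were 8608350, 4842331 and 7122651 in replicates 1 to 3. Levels are CPM, counts scaled to a common effective library size. The limit that a count of 0 allows, 3 reads, is 0.356, 0.605 and 0.422 CPM for replicates 1, 2 and 3. Counting error is all that such limits and the intervals cover. They treat each read as independent, but amplified reads carry no molecular identifiers, so the intervals may be too narrow even for counting error. Transcript lengths were not used, so the CPM of 2 different genes are not ranked against each other, and comparisons are made for 1 gene between libraries. All 8 of 8 fibroblast markers, among them COL1A1, DCN and PDGFRA, reached 1 CPM in every library, with a summed level of 111943 to 123081 CPM. Markers of hepatocytes, the main source of transferrin, had 0 of 7 members at that level and summed to 1.27 to 2.42 CPM, with AHSG, APOA1 and SERPINA1 at 0 reads. In all libraries together HP had 12 reads, TTR 10, FGB 10 and ALB 2. Erythroid markers had 0 of 7 and summed to 0.713 to 5.64 CPM, with the haemoglobin genes HBA, HBA1 and HBB at 0 reads. AHSP, however, had 1, 21 and 7 reads in replicates 1 to 3, with the intervals of its highest and lowest libraries apart. EPB42 had 8 reads, KLF1 3 and ALAS2 1. Epithelial markers had 0 of 5 (1.07 to 4.23 CPM, EPCAM at 0). KRT19 had 1, 9 and 7 reads, also with intervals apart, and in all KRT8 had 16, CDH1 15 and KRT18 2. Macrophage and leukocyte markers had 2 of 7, CD68 and LYZ, and summed to 4.63 to 9.01 CPM, with PTPRC and CD14 at 0. Endothelial markers had 2 of 4, PECAM1 and TEK, and summed to 5.64 to 12.2 CPM, with KDR at 0.

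Most of the transport machinery was present and the metallothioneins were nearly absent from the counts. Of the 43 genes, 27 reached 1 CPM in every library, against 34.6% of all genes of the table. By class these were 6 of 8 zinc exporters, 9 of 13 zinc importers, 0 of 4 metallothioneins, MTF1, 5 of 5 copper genes and 6 of 12 iron genes. Another 8 had some reads but fell short of that level in a library, and 8 had 0 reads in every library, as did 43.5% of the table. The number at 1 CPM was 28 without replicate 1, which brought in SLC39A8, and 28 without replicate 3, which brought in STEAP3. The median of the mean levels was 6.81 CPM over the 43 genes and 0.134 CPM over all genes of the table. Rows without reads lower that table-wide value. Over the 18039 genes with a read the median was 4.96 CPM, and 61.2% reached 1 CPM in every library, beside 62.8% of the 43. The set thus lay near the level of genes with a read.

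**Figure D1:**
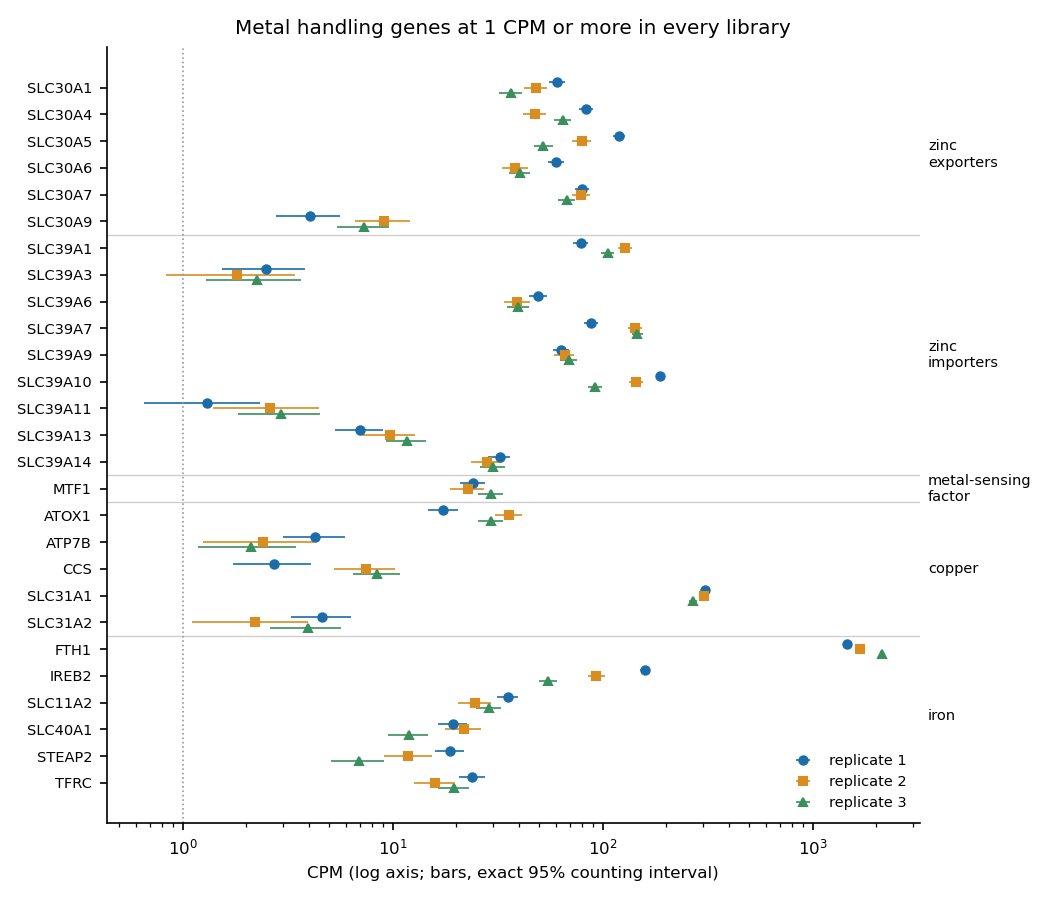
CPM (log axis) of the 27 metal handling genes at 1 CPM or more in every library, with 1 symbol per replicate and bars for the exact 95% counting interval; the dotted line is 1 CPM. FTH1 lies between 1457 and 2129 CPM and the copper importer SLC31A1 between 270.02 and 308 CPM, while SLC39A3, SLC39A11, ATP7B and SLC31A2 lie near the 1 CPM line with wide intervals.

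Zinc export and organelle loading were represented by 6 transporters. SLC30A1, which carries zinc out across the plasma membrane, had 512, 238 and 260 reads in replicates 1 to 3, or 60.8, 48.0 and 36.6 CPM (48.5 ± 12.1, SD, n = 3). Replicate 1 was highest and replicate 3 lowest, and their counting intervals were apart. SLC30A5 and SLC30A6 form a heterodimer that loads zinc into the early secretory pathway, where zinc enzymes such as alkaline phosphatase mature, and SLC30A7 acts in the same compartment. The reads of SLC30A5 were 1008, 394 and 371, which gave 119.7, 79.4 and 52.2 CPM (83.8 ± 34.0), a 2.29-fold range with replicate 1 highest. Its partner SLC30A6 stood at 60.1, 38.3 and 40.2 CPM (46.2 ± 12.1), again with replicate 1 highest but with replicates 2 and 3 close together. SLC30A7 varied little, at 80.1, 79.2 and 67.5 CPM (75.6 ± 6.99), a 1.19-fold range. The vesicular transporter SLC30A4 was at 83.4, 47.6 and 64.6 CPM (65.2 ± 17.9), highest in replicate 1 and lowest in replicate 2. SLC30A9, a transporter of mitochondrial zinc, departed from this order, with only 34, 45 and 52 reads and 4.04, 9.07 and 7.32 CPM (6.81 ± 2.55), lowest in replicate 1. SLC30A2, a transporter of secretory vesicles in the mammary gland, and SLC30A3, which fills synaptic vesicles with zinc, had 0 reads in every library. In RefSeq's gene order SLC30A3 lies in a run of 4 genes at 0 reads, UCN, TRIM54, DNAJC5G and SLC30A3, next to CAD with 481. SLC30A2 lies between TRIM63 at 0 reads and EXTL1 with 9. Whether reads could be assigned to these 2 genes was not tested.

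Together the reads on the 8 exporter genes amounted to 408, 301 and 268 CPM, so replicate 1 was above both others (326 ± 73.0, n = 3). Of the 6 exporters with 10 or more reads in every library 5 were highest in replicate 1, as were 39.3% of all genes so tested.

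Zinc import was spread over 9 transporters, and these did not share 1 library order. SLC39A1, a plasma membrane importer, had 661, 636 and 751 reads, or 78.5, 128 and 106 CPM (104 ± 24.9), and was lowest in replicate 1. SLC39A7, which releases zinc from the endoplasmic reticulum, had 742, 706 and 1040 reads, or 88.1, 142 and 146 CPM (126 ± 32.5). Replicate 1 was again lowest, with replicates 2 and 3 close together, and the intervals of the highest and lowest libraries were apart for both genes. SLC39A10 ran the other way, with 1583, 714 and 653 reads and 188, 144 and 91.9 CPM (141 ± 48.1), a 2.05-fold range with replicate 3 lowest. Its close relative SLC39A6, with which it forms a complex, stood at 49.4, 39.1 and 39.5 CPM (42.7 ± 5.83), where the intervals of the highest and lowest libraries overlapped. The Golgi transporter SLC39A9 was the steadiest of the genes tested here, at 63.2, 65.9 and 68.8 CPM (66.0 ± 2.81), a 1.09-fold range. SLC39A14, which also carries iron and manganese that are not bound to transferrin, was at 32.3, 28.0 and 30.0 CPM (30.1 ± 2.15), with overlapping intervals. SLC39A13, whose loss causes a connective tissue disorder of the Ehlers-Danlos group in humans, had 59, 48 and 83 reads, or 7.01, 9.67 and 11.7 CPM (9.45 ± 2.34). SLC39A11 (11, 13 and 21 reads, 2.29 ± 0.871 CPM) and SLC39A3 (21, 9 and 16 reads, 2.19 ± 0.345 CPM) were near the limit, with overlapping intervals.

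The other 4 importers were below 1 CPM in a library. SLC39A8, a relative of SLC39A14 with the same range of metals, had 3, 14 and 9 reads, or 0.356, 2.82 and 1.27 CPM. Replicate 1 lay below replicate 2 beyond counting error, and the gene was below 1 CPM only in replicate 1. SLC39A5, known from pancreas and intestine, had 3, 3 and 6 reads although the 3 annotated genes on either side of it had 143 to 6583 reads each. SLC39A12, a brain transporter, had 1 read in all, and SLC39A2 had 0. Over the 13 importer genes the summed level was 511, 565 and 501 CPM (526 ± 34.2), so the sum differed less between libraries than several of its parts. This was partly fixed in advance, because a sum cannot range more widely than its widest part. Genes with many reads also weigh most in it. On the log2 scale the highest library exceeded the lowest by 0.17 for the importers and by 0.60 for the exporters.

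Metallothioneins, small cysteine-rich proteins that buffer zinc and copper, gave 18 reads in all 3 libraries together. MT2A had 4, 12 and 2 reads, or 0.475, 2.42 and 0.281 CPM, and replicate 2 lay above replicate 3 beyond counting error. These are few reads, and MT2A was not called in the variability test given below. MT1A, MT1E and MT3 had 0 reads in every library, and so did MT4, a neighbouring gene outside the rule. In RefSeq's gene order for the ARS-UCD2.0 assembly, MT1A, MT2A, MT3 and MT4 lie side by side among genes with a row in the table, with CES1 and LOC508916 at 0 reads on one side and BBS2 at 687 reads on the other. The same table lists MT1E as an older name of MT1A and of 2 unnamed loci in the cluster, so which locus the MT1E row counts is not known. Metallothionein genes are much alike, and reads with several alignments, 7.52 to 7.99% of each library's counted reads, are not in the gene counts. The part of unassigned reads in these low values was not tested. MTF1, the factor that induces metallothioneins and SLC30A1 when zinc rises, had 203, 113 and 209 reads, or 24.1, 22.8 and 29.4 CPM (25.4 ± 3.51), with overlapping intervals.

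**Figure D2:**
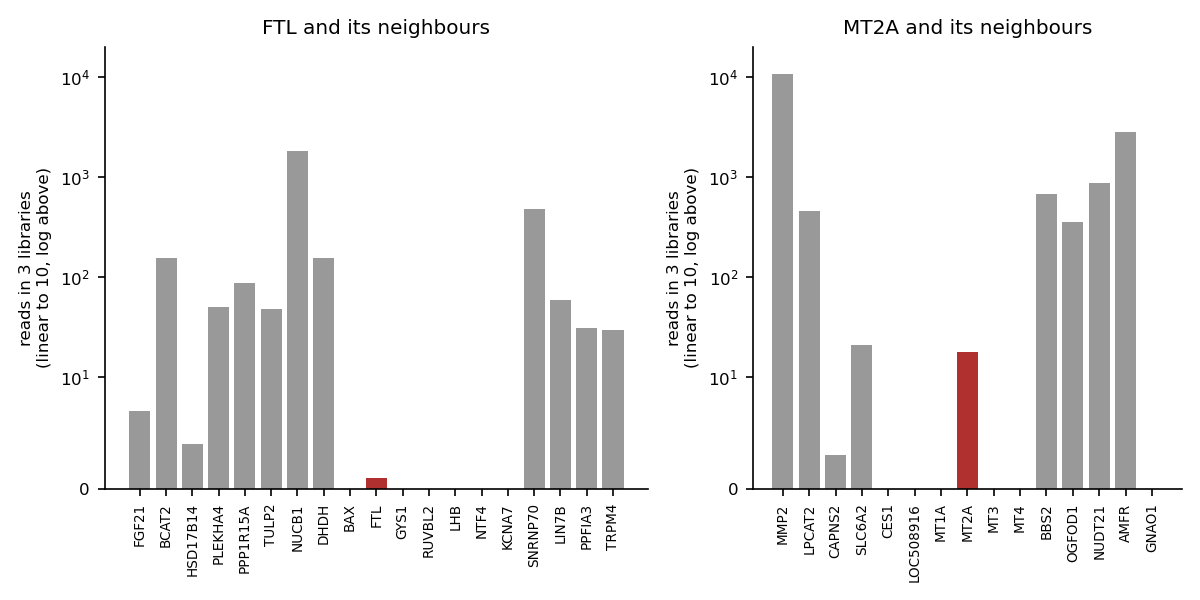
Reads summed over 3 libraries (linear to 10, log above) for FTL (left, red) and MT2A (right, red) and the annotated protein-coding genes beside them in RefSeq order, without distances. FTL, with 1 read, sits in an unbroken run of 7 genes with at most 1 read each, and MT2A, with 18 reads, sits between neighbours at 0.

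All 5 copper genes analysed reached 1 CPM in every library. SLC31A1, the high-affinity copper importer, had 2592, 1514 and 1919 reads, or 308, 305 and 270.02 CPM (294 ± 21.1), a 1.14-fold range. Its relative SLC31A2, found on endosomes and lysosomes, had only 39, 11 and 28 reads, or 4.63, 2.22 and 3.94 CPM (3.60 ± 1.24), with overlapping intervals. ATOX1, which hands copper to the copper-pumping ATPases of the secretory pathway, had 147, 177 and 209 reads, or 17.5, 35.7 and 29.4 CPM (27.5 ± 9.25). CCS, which loads copper into superoxide dismutase SOD1, had 23, 37 and 60 reads, or 2.73, 7.46 and 8.44 CPM (6.21 ± 3.05). Both chaperones were lowest in replicate 1, by 2.04-fold for ATOX1 and 3.09-fold for CCS, beyond counting error. ATP7B, the copper ATPase mutated in Wilson disease, had 36, 12 and 15 reads, or 4.28, 2.42 and 2.11 CPM (2.94 ± 1.17), and its intervals overlapped. Of the 5 copper genes 4 had a highest library 2-fold or more over the lowest, against 24.6% of all genes tested, and 3 of these 4 had at most 60 reads in any library.

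Iron storage and sensing carried most of the iron reads. FTH1, the ferritin heavy chain with ferroxidase activity, had 12268, 8321 and 15128 reads, or 1457, 1677 and 2129 CPM (1754 ± 342). Replicate 3 was highest and replicate 1 lowest, a 1.46-fold range. IREB2, which represses ferritin translation and stabilizes TFRC messenger RNA when iron is low, had 1339, 463 and 392 reads, or 159, 93.3 and 55.2 CPM (103 ± 52.6). Its libraries stood in the opposite order, with replicate 1 at 2.88-fold replicate 3 and all 3 counting intervals apart.

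FTL, the ferritin light chain, was listed at 1, 0 and 0 reads, and this value is not taken as its level. In the RefSeq gene order it lies in a run of 7 genes with at most 1 read each, BAX, FTL, GYS1, RUVBL2, LHB, NTF4 and KCNA7, which together had 1 read. Just outside that run DHDH had 155 reads and SNRNP70 had 483. The counts therefore give no ratio of the ferritin chains, and the reason for the gap was not tested. Reads of FTH1 from near-identical copies, if any, would also be missing from its count.

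Iron uptake and release were present at moderate read numbers. TFRC, the transferrin receptor, had 201, 79 and 139 reads, or 23.9, 15.9 and 19.6 CPM (19.8 ± 3.98). SLC11A2, which moves iron out of endosomes into the cytosol, had 298, 122 and 204 reads, or 35.4, 24.6 and 28.7 CPM (29.6 ± 5.46). Both were highest in replicate 1 and lowest in replicate 2. SLC40A1, the only known cellular iron exporter, had 163, 108 and 85 reads, or 19.4, 21.8 and 12.0 CPM (17.7 ± 5.11), lowest in replicate 3. STEAP2, a ferrireductase and cupric reductase, had 158, 59 and 49 reads, or 18.8, 11.9 and 6.89 CPM (12.5 ± 5.96), a 2.72-fold range with replicate 1 highest.

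The other iron genes had few reads or none. STEAP3, the endosomal ferrireductase best known from erythroid precursors, had 21, 5 and 4 reads, with replicate 1 above replicate 3 by 4.43-fold in CPM. TFR2, an iron sensor of liver and erythroid cells, had 7, 5 and 1 reads, and STEAP1 had 0, 0 and 2. STEAP4 and TF, the gene of serum transferrin made in liver, had 0 reads in every library. TF lies in RefSeq order between RAB6B with 40 reads and TOPBP1 with 1018, so reads were assigned on both sides of it. STEAP4 lies between SRI with 1699 reads and ZNF804B with 0.

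**Figure D3:**
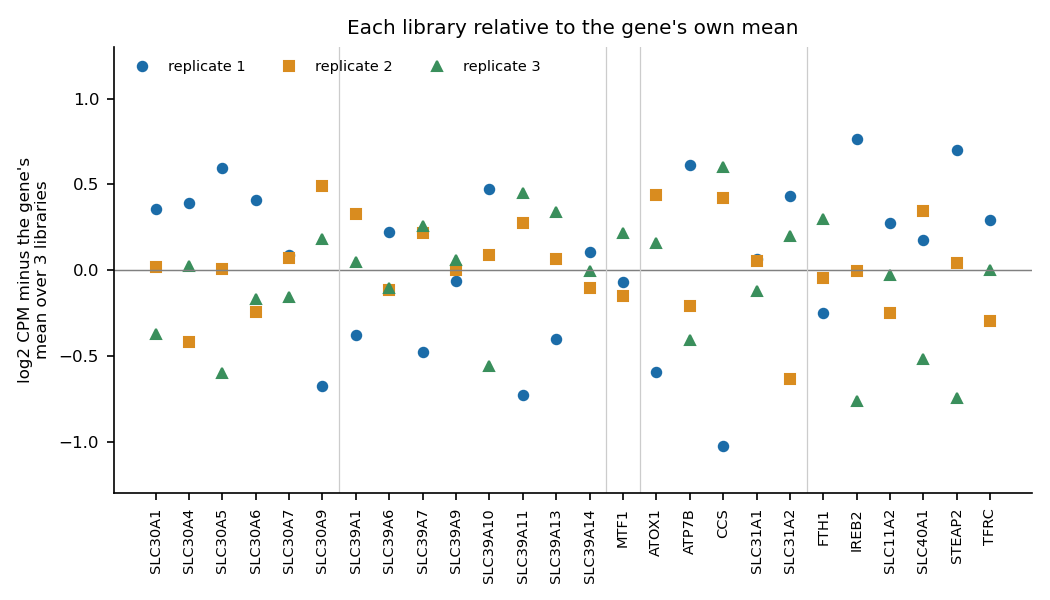
Log2 CPM of each replicate minus the gene's own mean over 3 libraries, for the 26 genes with 10 or more reads in every library, with vertical lines between zinc exporters, zinc importers, MTF1, copper and iron genes. Replicate 1 (circles) is above the other libraries for 15 genes, among them IREB2, STEAP2 and SLC30A5, and below them for 9, among them CCS, SLC30A9 and ATOX1.

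No gene of the set was called more variable between replicates than genes of its level. Each of 10434 genes with 10 or more reads in every library was tested for a spread above edgeR's trended dispersion, and 26 of the 43 genes entered. At an adjusted p under 0.05, 0 of 26 were called, and 2 of all genes were (0.0192%). At an unadjusted p under 0.05, 1 of 26 passed, IREB2, against 5.24% of all genes. For IREB2 the unadjusted p was 0.0086 and the adjusted p was 0.54 against the edgeR trend, and over the alternatives its adjusted p ranged from 0.52 to 1.00. SLC30A5 came next with an adjusted p of 0.98 in the edgeR-based test. When all genes with a read entered the test, 35 of the set did, among them MT2A, SLC39A8 and STEAP3. Of these 35, 0 were called, and IREB2 alone had an unadjusted p under 0.05. A gene that was not called is not thereby shown to be steady.

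The ranges between libraries were set beside those of all genes tested. The highest and lowest libraries had intervals apart in 19 of 26 genes, against 63.3% of all genes tested. A range of 2-fold or more was seen in 10 of 26, against 24.6%, and the median range was 1.66-fold over the 26 genes and 1.54-fold over all genes tested. Replicate 1 was highest in 15, replicate 2 in 4 and replicate 3 in 7, where the shares over all genes tested were 39.3%, 24.4% and 36.3%. Replicate 1 was lowest in 9 of 26, against 40.3%.

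**Figure D4:**
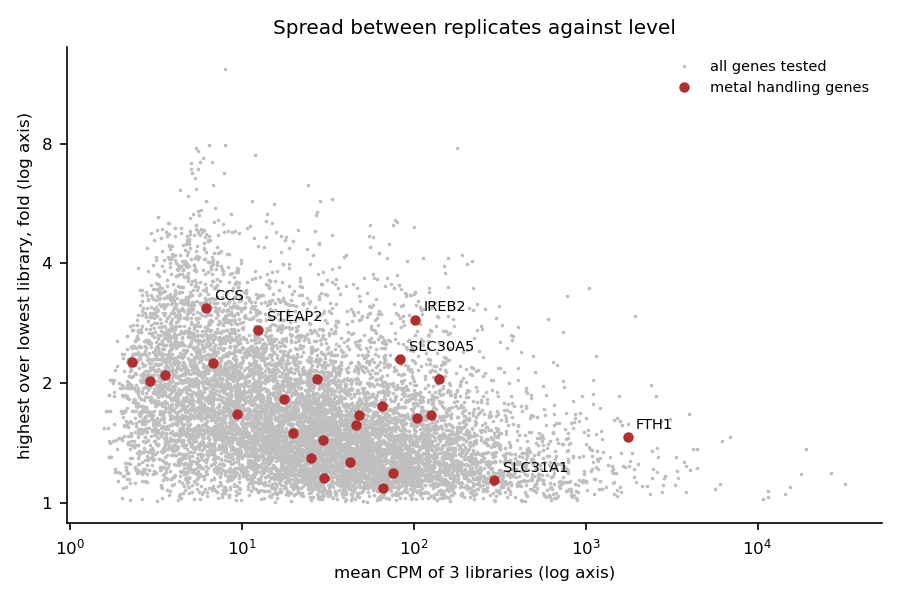
Highest over lowest library (fold, log axis) against mean CPM (log axis) for 10434 genes (grey) and the 26 metal handling genes tested (red). The red points lie within the grey cloud, with CCS at 3.09-fold, IREB2 at 2.88-fold and STEAP2 at 2.72-fold the highest of them.

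Ratios of 2 genes within a library were used to ask whether partners moved together, since transcript length cancels when 1 ratio is compared between libraries. Of 20 pairs chosen, 17 had both genes. With 3 libraries the exact two-sided sign-flip permutation test cannot give a p below 0.25, so the ratios are given by their range on the scale of log2(CPM + 0.5). The steadiest was SLC39A7 over SLC39A13, both in the secretory pathway, at 3.56, 3.81 and 3.59, a span of 0.25, although both genes varied by 1.66-fold or more. Both genes were lowest in replicate 1, as were 40.3% of all genes tested. SLC39A13 had only 59, 48 and 83 reads, so counting error alone could move this ratio. Whether the 2 genes are linked was not tested. SLC30A5 over SLC30A6, the heterodimer, was 0.99, 1.04 and 0.37 and so was lower in replicate 3 than in the other two. ATOX1 over CCS, the copper chaperones, was 2.47, 2.18 and 1.74. SLC30A1 over SLC39A1, an exporter and an importer of the plasma membrane, was -0.37, -1.41 and -1.52, with replicate 1 apart from replicates 2 and 3 by over 1 log2 unit.

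Iron uptake, release and sensing were compared in the same way. TFRC over SLC40A1, uptake over release, was 0.30, -0.44 and 0.69, and SLC11A2 over SLC40A1 was 0.85, 0.17 and 1.23, so both ratios were lowest in replicate 2. They share SLC40A1, which was highest in replicate 2, while TFRC and SLC11A2 were lowest there. Their agreement thus follows from the single levels and is no separate observation. IREB2 over ACO1, the 2 iron regulatory proteins, was 0.98, -0.15 and -1.02, a span of 2.00 between replicates 1 and 3. ACO1, which is no member of the set, had 678, 513 and 799 reads, or 80.5, 103 and 112 CPM (98.8 ± 16.4), and was lowest in the library where IREB2 was highest. The spans of 2.16 for SLC39A14 over SLC39A8 and 2.26 for MT2A over MTF1 rest on 26 reads of SLC39A8 and 18 of MT2A. In summed reads SLC31A1 had 77.2 times those of SLC31A2 (exact 95% interval 61.8 to 97.9) and TFRC 32.2 times those of TFR2 (18.6 to 61.0), values that carry both transcript lengths. These intervals pool the reads of 3 libraries and cover counting error only, not the spread between libraries. Within libraries the log2 ratios were 5.91, 6.81 and 5.93 for SLC31A1 over SLC31A2 and 4.19, 3.45 and 4.97 for TFRC over TFR2.

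**Figure D5:**
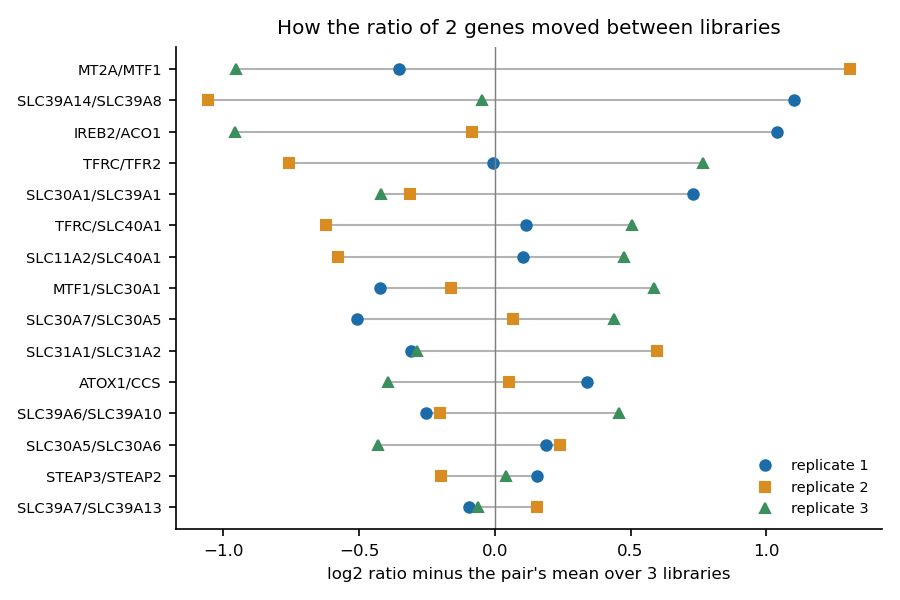
Log2 ratio of 2 genes in each replicate minus the pair's mean over 3 libraries, for 15 pairs ordered by span. The span is 0.25 for SLC39A7 over SLC39A13 and 2.00 for IREB2 over ACO1; the pairs with MT2A, SLC39A8, TFR2 or STEAP3 rest on few reads.

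Other genes of metal metabolism came from a list of which 44 had a row. Of these, 32 reached 1 CPM in every library, against 34.6% of the table and 61.2% of genes with a read. The variability test called 0 of these 32 at an adjusted p under 0.05 with edgeR's trend, and 0 of 32 had an unadjusted p under 0.05. NCOA4, the receptor that delivers ferritin to lysosomes, had 2643, 1037 and 1518 reads, or 314, 209 and 214 CPM (246 ± 59.3), highest in replicate 1. FBXL5, the ubiquitin ligase subunit that removes IREB2 protein when iron is ample, stood at 60.3, 84.4 and 62.1 CPM (68.9 ± 13.4), highest in replicate 2. The iron chaperones PCBP1 (213 ± 25.8 CPM) and PCBP2 (348 ± 19.3 CPM), which deliver iron to ferritin, varied by 1.28-fold and 1.11-fold. CYBRD1, a plasma membrane ferrireductase, was at 49.7, 54.0 and 49.4 CPM (51.0 ± 2.59), with overlapping intervals.

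Haem and mitochondrial iron genes were also counted. HMOX1, which frees iron from haem, had 92, 33 and 72 reads (9.24 ± 2.28 CPM), and the mitochondrial iron importer SLC25A37 stood at 68.2 ± 8.85 CPM. ISCU, the scaffold on which iron-sulfur clusters are assembled, was at 98.8, 134 and 133 CPM (122 ± 20.1). Among copper users and carriers, SOD1 was at 182, 210 and 176 CPM (189 ± 17.9), and COX17, which brings copper to cytochrome oxidase, at 33.9, 37.3 and 37.6 CPM (36.2 ± 2.07). The hormone gene HAMP, its regulators HFE2 and TMPRSS6, the iron-binding secreted proteins LTF and LCN2, FTMT, HEPHL1 and FLVCR2 had 0 reads in every library.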

How the data were processed

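RNA of 3 BFF116 replicates (1 group) was measured from amplified cDNA with single reads of 100 bases. The deposited table holds read counts per gene, not normalized, for which the submitters' processing notes name HTSeq 0.6.1, TopHat2 2.0.10 and bcl2fastq 2.18.0.12. The sources used here name no build, annotation or strand setting, so overlapping genes cannot be told apart. The 5 rows naming no gene were left out. Reads in no gene were 58.9 to 62.0% of counted reads.

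CPM were computed with edgeR 4.0.16 (R 4.3.3) and TMM factors of 0.978, 1.02 and 0.998. Variability was tested by a negative binomial Pearson statistic against the trended dispersion (chi-square, 2 degrees of freedom, Benjamini-Hochberg over 10434 genes). The procedure was run on counts simulated with these same fitted dispersions, so that run cannot show how well the trend holds for the real counts. The common biological coefficient of variation was 27.3%. Intervals are exact (Clopper-Pearson, 95%). Alternatives were DESeq2 1.42.0 size factors, scaling by gene count total alone, other filters, dispersions and pseudocounts, and leaving out each replicate.

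Neighbours came from RefSeq ARS-UCD2.0 by symbol (42 of 43 matched) for gene order only. Every member was named by class. Members, lists and pairs were chosen with earlier results of these data known. A planned motif count was not made, as no promoter sequences were used here.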

Additional observations from a re-analysis of the deposited data

How the results depend on the processing

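The count of 27 genes at 1 CPM in every library was 27 with DESeq2 size factors and with scaling by gene count total alone. It was 26 with 10 or more reads required, 32 with 1 or more reads required, and 27 to 28 with a replicate left out. The variability test called 0 of the metal handling genes under each of 7 alternatives, while over all genes it called 5 with DESeq2 size factors, 6 without replicate 1, and 0 without replicate 2 or without replicate 3, against 2 with all libraries. IREB2 was the 1 gene of the set with an unadjusted p under 0.05 in all of these except without replicate 3, where there was none. The common coefficient of variation was 20.0% without replicate 1, 33.6% without replicate 2 and 25.0% without replicate 3. All 27 mean levels moved by less than 1 SD under each of 5 alternatives. With a replicate left out this was fixed in advance, because dropping 1 of 3 values cannot move their mean by 1 SD. IREB2, for instance, went from 103 CPM to 75.1 CPM without replicate 1 and to 126 CPM without replicate 3. Of 102 alternative values of the 17 ratios, 97 moved by less than 1 SD, again fixed in advance for a replicate left out. The other 5 moved with the pseudocount. These were STEAP3 over STEAP2 (-3.23 at 0.1 and -2.51 at 1, against -2.84) and the ratios over FTL and STEAP4, which are not interpreted. A ratio whose sign all libraries share had to keep it, and 0 of those changed sign. Where libraries differed, the mean could change sign. Without replicate 3, TFRC over SLC40A1 went from 0.18 to -0.07 and IREB2 over ACO1 from -0.06 to 0.42. SLC30A7 over SLC30A5 went from -0.07 to 0.18 without replicate 1. Both other scalings moved the span of the summed exporters (0.60) to 0.58 and 0.62, within a 95% counting error of 0.081. That of the summed importers (0.17) moved to 0.18 and 0.21, within 0.071. With scaling by gene count total alone the importers were lowest in replicate 1 rather than 3. The planned ratios per length were not run, because transcript lengths were not used here. No paired analysis was possible because the series has 1 group. Genes with under 40 reads in a library, among them CCS, ATP7B, SLC31A2 and SLC39A11, have intervals too wide to show small differences.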
